A study of Rattus norvegicus with 10 samples.

Results

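The nuclei described here are the endothelial nuclei of the rat dentate gyrus, picked by a marker gate from single-nucleus RNA-seq (snRNA-seq) of 4 rats. A nucleus entered the gate when its unique molecular identifiers (UMIs, 1 for each captured RNA molecule) over Flt1, Cldn5, Tek and Mecom came to 3 or more and to at least 0.4% of all its UMIs. The rule also named Pecam1, which was not among the 25399 genes of the deposited matrices, so 4 of the 5 gate genes were used. Of 55863 nuclei, 55401 had at least 500 UMIs and at most 5% mitochondrial UMIs, and 436 of these (0.787%) were members of the gate, 54 in TBI rat 1, 178 in TBI rat 2, 115 in sham and 89 in naïve.

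The series followed traumatic brain injury (TBI) made by lateral fluid percussion in male Sprague-Dawley rats. Both TBI rats had a craniectomy over the right parietal cortex, received a moderate fluid pulse on the intact dura under isoflurane 3 days later, and were euthanized 3 weeks after the pulse. The sham rat had the same surgery and anesthesia with no pulse, and the naïve rat had no surgery. All were young adults at the time of injury or sham injury. The dentate gyrus ipsilateral to the injury was dissected, and each rat gave 1 library of nuclei made with the Nuclei EZ prep kit and captured with droplet 3′ chemistry. The labels set no batch apart among the 4 libraries, and batch differences between them were not tested. The sham and naïve rats were pooled as the control group, as the study had done, so the control holds an operated and an unoperated animal. Each group held 2 rats, so p-values for TBI against control rest on the spread between these 4 animals. Tests that compare nuclei of the same rats rest on the spread of the differences within rats.

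Brain endothelial cells line the capillaries, arterioles and venules and form the blood-brain barrier. They are joined by tight junctions, carry little vesicle traffic, and move glucose, amino acids, hormones and drugs across the barrier through carriers and efflux pumps. Pericytes share the capillary wall and its basement membrane with them, and the barrier state is known to depend on Wnt and norrin signals from the surrounding tissue.

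The members held 1199260 UMIs in all, 131070 in TBI rat 1, 314602 in TBI rat 2, 317104 in sham and 436484 in naïve. The median member had 2194 UMIs in TBI rat 1, 1461 in TBI rat 2, 2198 in sham and 3614 in naïve. The naïve members were the deepest, and TBI rat 2 gave the most members with the fewest UMIs each. Of the kept nuclei, 630 had a barcode sequence that occurred in more than 1 library, and none of the members shared one with a member of another library. Levels are given as CPM, the UMIs of a gene scaled to 1000000 UMIs over the members of a rat.

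Members made up 0.431% of the kept nuclei in TBI rat 1 (54 of 12526; 95% exact Clopper-Pearson interval 0.324% to 0.562%). In TBI rat 2 they made up 1.22% (178 of 14574; 1.05% to 1.41%). In sham the share was 0.679% (115 of 16936; 0.561% to 0.815%), and in naïve it was 0.783% (89 of 11365; 0.629% to 0.963%). These intervals cover counting error only. The TBI rats thus held both the lowest and the highest share, with both controls between them. The mean share was 0.826% ± 0.559 after TBI and 0.731% ± 0.0736 in control (SD, n = 2 each). The difference of 0.0952 percentage points gave p = 1 in a two-sided exact permutation test over rats, a test that cannot go below 0.333 with 2 rats against 2. Without TBI rat 2 the difference was -0.300 percentage points, and without the members that another cell type's marker list also gated it was -0.0158. A lower share of endothelial nuclei and less marker RNA per nucleus cannot be told apart by such a gate.

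**Figure D1:**
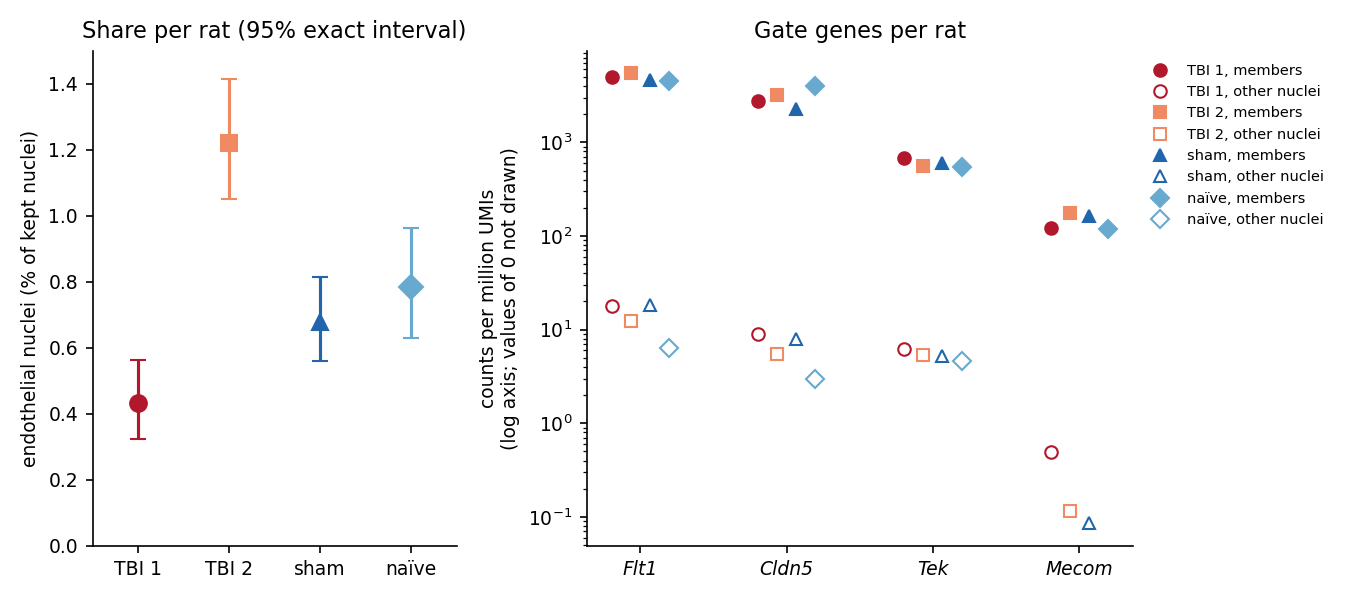
Left, endothelial nuclei as a percent of kept nuclei in each rat, with the exact 95% interval. Right, CPM of each gate gene on a log axis, filled for members and open for all other nuclei of the same rat, with the Mecom value of 0 in the other nuclei of the naïve rat not drawn. The TBI rats have the lowest share (0.431%) and the highest (1.22%), and each gate gene is higher in members of every rat, as the gate selected.

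The gate genes themselves are given as a description, because they chose the members. Flt1, a receptor for VEGF-A, led the gate with 649 UMIs in TBI rat 1, 1719 in TBI rat 2, 1484 in sham and 1985 in naïve, or 4952, 5464, 4680 and 4548 CPM, against 6.40 to 18.5 CPM in all other nuclei. Cldn5, the main claudin of brain endothelial tight junctions, had 362, 1016, 712 and 1751 UMIs in the same order, or 2762, 3229, 2245 and 4012 CPM. Its ratio to Flt1 was uneven between rats, at 55.8, 59.1, 48.0 and 88.2 Cldn5 UMIs per 100 Flt1 UMIs, the last in naïve. Tek, the receptor for angiopoietins, stood at 679, 559, 605 and 550 CPM, and Mecom, a transcription factor of arterial and hematopoietic lineages, at 122, 178, 164 and 119 CPM from 16, 56, 52 and 52 UMIs. Most members carried several of these genes: 90 had UMIs of all 4, 224 of 3, 112 of 2 and 10 of 1, and leaving Mecom out of the gate lost 4 members. At the edge of the gate, the lowest member stood at 0.402% to 0.420% of its UMIs in the 4 rats, and the highest nucleus just outside, among those with 3 or more gate UMIs, at 0.376% to 0.397%.

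Endothelial identity genes outside the gate were present in every member. Summed over the 30 such genes in the matrices, they took a median 1.91% of a member's UMIs, from 0.238% to 3.65%, and 0 members lacked them. The summed level was 18830 CPM in TBI rat 1, 19644 in TBI rat 2, 19382 in sham and 18264 in naïve, against 164 to 256 CPM in all other nuclei. In the pericyte-gated nuclei described below the same list summed to 4652, 7533, 3608 and 3474 CPM, so it was not confined to the members. Cyyr1, a small membrane protein gene used as an endothelial marker, stood at 2541, 2247, 2797 and 2231 CPM and was detected in 92.6%, 92.1%, 98.3% and 98.9% of members, against 1.71%, 0.625%, 2.00% and 0.443% of other nuclei. Slco1a4, the organic anion carrier of the rodent barrier, stood at 1793, 1860, 1801 and 2012 CPM, and Adgrf5, an adhesion receptor of vessels, at 1144, 1357, 1337 and 1040 CPM. The order of the rats differed from gene to gene, and the TBI and control rats overlapped for all 3.

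Each rat's members were compared with all its other kept nuclei by edgeR's quasi-likelihood test on UMI sums, with the rat as a block, over 14056 genes. A gene was called at a Benjamini-Hochberg adjusted p (FDR) under 0.05 with a log2 fold change (Log2FC) of 1 or more, and 2570 genes (18.3% of those tested) were called higher and 3335 (23.7%) lower. The other nuclei were mostly neurons and glia, so the comparison describes what sets these nuclei apart in this tissue, and because the gate selected a cell type its other genes were in effect selected with it. Of the 352 genes of the 20 vascular and pathway lists used here, 314 passed the filter on low sums, and 222 of these (70.7%) were called higher and 23 lower, with a median Log2FC of 2.78 against -0.38 over all genes. That all-gene median was -0.27 with DESeq2's size factors in the same test. Of the 26 identity genes tested, 26 were called higher, with a median Log2FC of 7.51. A gene could pass the filter on low sums through the members alone. Genes high only in the members could thus enter these counts through them, so the counts describe the lists and do not test them.

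The 15 genes outside the gate with the largest Log2FC ran from Bcam (8.85 ± 0.35, SE; edgeR FDR = 1.7e-10) to Fam110d (8.02 ± 0.34). Bcam encodes a cell-surface receptor for laminin and stood at 206, 200, 259 and 378 CPM in TBI rat 1, TBI rat 2, the sham rat and the naïve rat. Fn1, fibronectin of the vessel wall, stood at 450, 613, 482 and 669 CPM (Log2FC 8.50 ± 0.31). Transcription factors among the 15 were Klf4, a flow-responsive factor of endothelium (214, 114, 205 and 332 CPM), Foxc1 (107, 118, 123 and 156 CPM) and Erg, which maintains endothelial identity (381, 451, 467 and 344 CPM). The rats overlapped for Klf4 and Erg, while both TBI values of Foxc1 and of Bcam lay below both controls. Cyyr1, Adgrl4, Itm2a, Hspa12b, Serpinb6b, RGD1565166 and Vim, the gene of the intermediate filament vimentin, were also in this group. Vim ran from 334 CPM in the sham rat to 1045 CPM in the naïve rat, with 404 and 544 CPM in the TBI rats between them.

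A pair of the 15 are not endothelial markers. Vtn, vitronectin, which brain pericytes secrete, stood at 420, 626, 296 and 518 CPM in members, with a Log2FC of 8.62 ± 0.34 against all other nuclei. Its mean was 465 CPM in members and 578 CPM in the pericyte-gated nuclei described below, and its Log2FC was 7.96 without the members that another cell type's list gated and 6.96 at a gate of 5 UMIs and 0.8%. LOC100134871, for which no annotation was matched here, stood at 587, 515, 315 and 1129 CPM (Log2FC 8.44 ± 0.70).

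**Figure D2:**
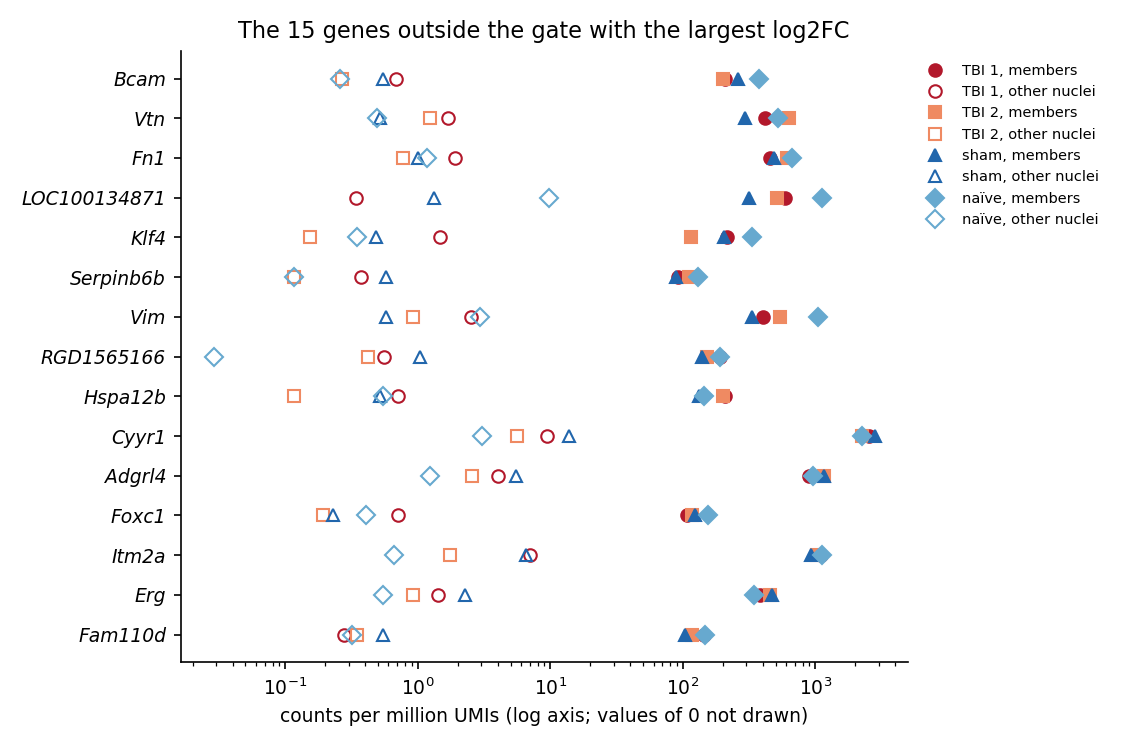
CPM on a log axis for the 15 genes outside the gate with the largest Log2FC of members against all other nuclei, filled for members and open for other nuclei, with a marker for each rat and values of 0 not drawn. Members of every rat stand at 88.3 CPM or more for each gene, and the other nuclei at 13.7 CPM or less.

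Endothelial transcription factors were high as a group: 20 of 21 tested were called higher and 0 lower, with a median Log2FC of 5.20. Epas1, the HIF-2 alpha gene, stood at 1373, 1459, 1359 and 1324 CPM in TBI rat 1, TBI rat 2, the sham rat and the naïve rat, with a Log2FC of 5.20 ± 0.22. Ets1 stood at 626, 525, 473 and 580 CPM and Fli1 at 504, 410, 473 and 325 CPM, both ETS factors of vessel development. For Epas1 both TBI rats lay just above both controls, and for Ets1 and Fli1 the rats overlapped.

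The barrier genes fell into junctions, carriers and vesicle traffic. Of 19 junction genes tested, 14 were called higher and 2 lower, with a median Log2FC of 2.48. Cgnl1, paracingulin, which links tight junctions to actin, stood at 771, 490, 640 and 715 CPM (Log2FC 6.74 ± 0.24), and Esam, an endothelial adhesion molecule of those junctions, at 320, 502, 300 and 417 CPM (Log2FC 7.64 ± 0.38). Tjp1, the ZO-1 scaffold that neurons and glia also use, stood at 603, 617, 568 and 813 CPM with a Log2FC of only 1.79 ± 0.19. The scaffold Magi1 and the ZO-3 gene Tjp3 were called lower, with Log2FC of -1.25 ± 0.19 and -4.81 ± 0.80, and Tjp3 had no UMI in the members of 3 of the rats. The junction list therefore held endothelial genes that hardly occurred elsewhere beside scaffolds that other cells carried at similar or higher CPM.

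Efflux and organic anion transporters gave 6 of 8 higher and 1 lower (median Log2FC 4.44). Slco1c1, the thyroxine carrier, stood at 2159, 2152, 2107 and 1993 CPM, close to level across the rats (Log2FC 6.02 ± 0.26). Abcc4, an efflux pump of organic anions, stood at 458, 658, 476 and 389 CPM (Log2FC 2.81 ± 0.20). Abcg2, the breast cancer resistance pump of the luminal membrane, stood at 206 CPM in TBI rat 1, 1097 in TBI rat 2, 281 in sham and 330 in naïve (Log2FC 7.59 ± 0.33). TBI rat 2 was far above the other 3 rats, and TBI rat 1 was the lowest. Abcg2 was detected in 75.3% of the members of TBI rat 2 (134 of 178; exact interval 68.3% to 81.4%), against 29.6%, 47.0% and 56.2% in TBI rat 1, the sham rat and the naïve rat and 0.190% to 0.513% of other nuclei. With each member thinned to 500 UMIs, the detected share of Abcg2 was 42.1% in TBI rat 2 and 9.26%, 11.3% and 19.1% in the others. The member of this list called lower, Abcc5, is an efflux pump that other brain cells also carry.

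Nutrient and hormone carriers gave 16 of 21 higher and 2 lower (median Log2FC 2.79). Slc7a1, a carrier of cationic amino acids, stood at 2129, 2311, 1873 and 1709 CPM, with both TBI rats above both controls (Log2FC against other nuclei 4.67 ± 0.23). Slc2a1, the GLUT1 glucose carrier, stood at 984, 1214, 949 and 1267 CPM (Log2FC 5.39 ± 0.22), and Slc7a5, the large neutral amino acid carrier, at 786, 957, 546 and 793 CPM (Log2FC 5.88 ± 0.22). Slc39a10, a zinc importer, stood at 992, 1004, 855 and 855 CPM, again with the TBI rats above. The 2 called lower were Slc5a6, a vitamin carrier, and Slc6a9, the glycine transporter GlyT1. TBI and control rats overlapped for Slc2a1 and Slc7a5.

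Vesicle traffic and receptor uptake genes gave 11 of 14 higher and 1 lower (median Log2FC 3.80). Tfrc, the transferrin receptor that carries iron into the brain, stood at 984, 1078, 911 and 827 CPM (Log2FC 3.74 ± 0.20), and Cavin1, a coat protein of caveolae, at 236, 238, 262 and 307 CPM (Log2FC 6.75 ± 0.31). Both TBI rats lay above both controls for Tfrc and below both for Cavin1. Igf1r and Insr, receptors for insulin-like growth factor and insulin, had smaller Log2FC of 1.57 ± 0.19 and 1.67 ± 0.17. Lrp1, a scavenger receptor common to neurons and glia, was the 1 called lower (-1.16 ± 0.21). Mfsd2a, the lipid carrier that restrains vesicle traffic in this endothelium, was chosen after its values were seen, and stood at 198, 216, 214 and 238 CPM (Log2FC 4.93 ± 0.20).

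Signaling lists were less uniform. In the VEGF and angiopoietin list, 13 of 20 were called higher and 1 lower (median Log2FC 2.30). Kdr, the main signaling receptor for VEGF-A, stood at 473, 397, 505 and 442 CPM (Log2FC 7.94 ± 0.26), Ptprb, the phosphatase that opposes Tek signaling, at 1083, 938, 1179 and 813 CPM (5.43 ± 0.22), and Adgrl4, an adhesion receptor of angiogenic vessels, at 900, 1170, 1160 and 953 CPM (8.08 ± 0.37). Nrp1, the VEGF and semaphorin co-receptor that neurons also carry, had a Log2FC of -0.53 ± 0.19 and was not called, and Nrp2 was the gene called lower. These receptors overlapped between TBI and control rats.

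In the Wnt and norrin list, 13 of 20 were called higher and 3 lower (median Log2FC 1.95). Lef1, the nuclear partner of beta-catenin, stood at 1358, 1281, 1078 and 951 CPM (Log2FC 6.03 ± 0.23), with both TBI rats above both controls. Apcdd1, a Wnt inhibitor made by barrier endothelium, stood at 290, 347, 296 and 337 CPM (3.12 ± 0.18), and Tcf7l1 at 252, 172, 202 and 181 CPM (2.13 ± 0.20). The receptor gene Tnfrsf19 stood near the threshold with a Log2FC of 1.04 ± 0.18. The 3 called lower were the ligands Wnt7a and Wnt7b, which neural cells make, and the secreted Rspo3.

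In the Notch list, 9 of 15 were called higher and 3 lower (median Log2FC 2.79). Notch1, Jag2 and the endothelial receptor Notch4 had Log2FC of 3.44 ± 0.18, 2.34 ± 0.22 and 4.96 ± 0.25. The coactivator Maml2 (-1.05 ± 0.22), Notch2 and the ligand Dll1 were called lower. Maml2 had Log2FC from -0.76 to -0.98 and was not called in 5 of the alternative analyses, among them the one without the naïve rat.

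In the TGF-beta and BMP list, 10 of 22 were called higher and 2 lower (median Log2FC 0.77). The BMP receptor Bmpr2 stood at 649, 598, 892 and 651 CPM (1.49 ± 0.18) and the co-receptor Eng, endoglin, at 534, 505, 615 and 669 CPM (6.91 ± 0.30). Id1 and Id3, targets of BMP signaling, stood at 473, 423, 385 and 965 CPM and at 221, 216, 202 and 506 CPM, with Log2FC of 7.35 ± 0.29 and 3.70 ± 0.19. Both Id genes were highest in the naïve rat. The list sum was 3044, 3226, 3365 and 3991 CPM, the TBI rats below the controls.

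Genes for leukocyte traffic and cytokine response gave 12 of 21 higher and 1 lower, the interleukin receptor Il6r (median Log2FC 1.33). The chemokine Cxcl12 stood at 2060, 2320, 1832 and 2330 CPM (4.32 ± 0.24), the adhesion molecule Icam2 at 175, 327, 180 and 371 CPM (7.77 ± 0.40), and the interleukin-1 receptor Il1r1 at 244, 223, 192 and 247 CPM (6.31 ± 0.27). The adhesion molecules that inflamed endothelium is known to display were at or near the floor. Selp and Sele had 0 UMIs in the members of all 4 rats, which allows up to 3 UMIs, Icam1 had 7 UMIs in all and Vcam1 23. Whether their levels differed after TBI was not detectable at this depth.

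Interferon and MHC class I genes gave 23 of 26 higher and 0 lower (median Log2FC 4.11). B2m, the light chain of MHC class I, stood at 1350 CPM in TBI rat 1, 1716 in TBI rat 2, 833 in sham and 2598 in naïve (Log2FC 4.89 ± 0.25). Ifi27 stood at 488, 1233, 445 and 1508 CPM (4.79 ± 0.30) and Ifitm3, which hinders virus entry, at 244, 540, 139 and 444 CPM (7.42 ± 0.29). All 3 were lowest in the sham rat and next lowest in TBI rat 1, so the spread ran within each group rather than between them. The interferon receptor chain Ifnar1 stood level at 458, 496, 467 and 520 CPM. The list sum was 3670, 5610, 2658 and 6823 CPM, a gap between the controls far above that between group means (4640 after TBI and 4741 in control).

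Basement membrane and integrin genes gave 17 of 26 higher and 2 lower, Lamb1 and Itga9 (median Log2FC 1.96). Sparc, a matrix glycoprotein, stood at 1022, 1230, 1069 and 1452 CPM (5.23 ± 0.22), Itga6, a laminin receptor subunit, at 748, 795, 647 and 708 CPM (3.39 ± 0.19), and Col4a1, a collagen IV chain, at 496, 731, 401 and 976 CPM (3.09 ± 0.26). Genes of vessel tone and coagulation gave 13 of 16 higher and 0 lower (3.51). Vwf, von Willebrand factor, stood at 565, 693, 483 and 543 CPM (7.73 ± 0.34), Nos3, the endothelial nitric oxide synthase, at 259, 334, 401 and 360 CPM (4.83 ± 0.32), and Plat, tissue plasminogen activator, at 305, 315, 277 and 415 CPM. For Nos3 both TBI rats lay below both controls.

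**Figure D3:**
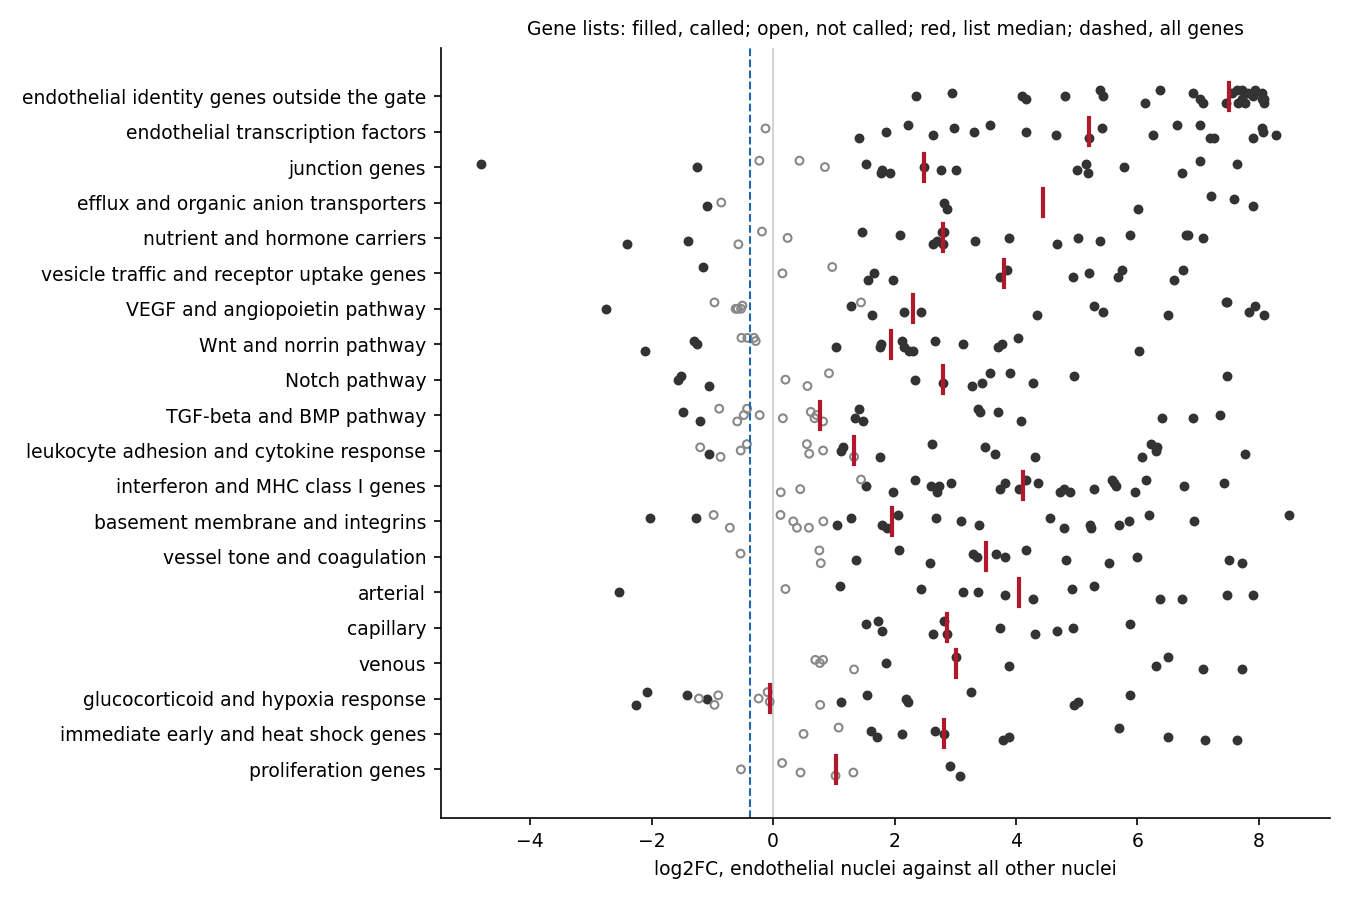
Log2FC of members against all other nuclei for each tested gene of the 20 lists (1 dot a gene), filled where called at FDR under 0.05 with an absolute Log2FC of 1 or more, open where not, with the list median in red and the median of all 14056 genes (-0.38) dashed. Identity genes and transcription factors lie farthest right (medians 7.51 and 5.20), and the glucocorticoid and hypoxia list has a median of -0.05.

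Response genes differed by list. Glucocorticoid and hypoxia response genes gave 8 of 19 higher and 4 lower, with a median Log2FC of -0.05. Klf9, a glucocorticoid-induced factor, stood at 252, 248, 221 and 209 CPM (0.78 ± 0.17, not called), and Nr3c1, the glucocorticoid receptor, at 91.6, 216, 107 and 131 CPM (1.12 ± 0.23, and 0.88 without TBI rat 2). The 4 called lower were Zbtb16, Sgk1, Pfkfb3 and Fkbp5. Immediate early and heat shock genes gave 11 of 13 higher and 0 lower (2.81). Hspb1, a small heat shock protein, stood at 305, 207, 255 and 777 CPM (7.63 ± 0.28) and Hspa8 at 221, 261, 107 and 479 CPM (1.71 ± 0.20). The naïve rat was the highest for both, and its list sum of 2112 CPM stood above 992, 1017 and 833 CPM in TBI rat 1, TBI rat 2 and the sham rat. Of its 922 naïve UMIs, 338 (36.7%) lay in 5 nuclei and 141 in 1 nucleus.

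Proliferation genes were few. Their list sum was 45.8, 38.1, 28.4 and 147 CPM, from 6, 12, 9 and 64 UMIs, and 21 of the 64 UMIs in the naïve rat came from 1 nucleus. Pcna, a replication clamp, was called higher (3.08 ± 0.43). Mcm2 was called (2.92 ± 0.84) but not without the sham rat (edgeR FDR = 0.075), at the gate of 5 UMIs and 0.8% (FDR = 0.23) or with the study's filters (FDR = 0.050). Top2a, a topoisomerase of dividing cells, had UMIs only in the members of the naïve rat.

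Arterial, capillary and venous zone lists were each present. Of the arterial list, 12 of 14 tested were called higher and 1, Stmn2, a gene better known from growing axons, lower. Of the capillary list 11 of 11 and of the venous list 7 of 11 were called higher. The capillary list summed to 7660, 8366, 6509 and 7322 CPM in TBI rat 1, TBI rat 2, the sham rat and the naïve rat, the arterial list to 1175, 1395, 990 and 1432 CPM, and the venous list to 1350, 1503, 1154 and 1482 CPM. Members with 2 or more UMIs of the capillary list numbered 53 of 54, 176 of 178, 113 of 115 and 87 of 89. Those with 2 or more arterial UMIs numbered 36, 91, 64 and 65, those with 2 or more venous UMIs 34, 110, 70 and 67, and 24, 68, 47 and 57 had both. The lists thus did not divide the members into separate zones at this depth.

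Mgp, a matrix protein of arteries, stood at 191, 420, 177 and 389 CPM, Sox17, the arterial transcription factor, at 191, 261, 202 and 296 CPM, and Nr2f2, the venous factor, at 183, 184, 132 and 247 CPM. All 3 were highest in TBI rat 2 or the naïve rat. The capillary sum differed between TBI and control by 1098 CPM, with both TBI rats above both controls (two-sided exact permutation p = 0.333, the smallest the 4 rats allow). The venous sum differed by 109 CPM (p = 0.667 in the same exact test) and the arterial sum by 74.1 CPM (p = 1), both with overlapping rats. Without the sham rat the arterial difference was -147 CPM and the venous one -55.3 CPM, and the arterial difference was -36.1 CPM without TBI rat 2.

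Markers of other cell types were counted in the members. All 10 of 10 pericyte list genes were called higher in members than in other nuclei (median Log2FC 6.75), none at 0 in any rat, and their sum was 3235, 3872, 2513 and 3519 CPM. Rgs5, a pericyte signaling regulator, stood at 786, 976, 517 and 1189 CPM and Atp13a5, a pericyte transporter, at 580, 658, 533 and 495 CPM. In pericyte-gated nuclei outside the endothelial gate the list summed to 7325 to 11551 CPM. Of the 436 members, 191 passed the gate of another cell type's list, for the most part the pericyte list with 16, 65, 25 and 29 members. Without these 191 the pericyte list still stood at 1886 to 2628 CPM over the 4 rats, 2241 genes were called higher and 3248 lower, and the part of the pericyte RNA in the other results was not tested.

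The glutamatergic list gave 0 of 8 higher and 8 lower (median Log2FC -2.69), at 2152, 1354, 1898 and 373 CPM in members against 6880 to 7747 CPM in other nuclei. The naïve members carried the least of it. Of the microglial genes 3 of 10 and of the astrocyte genes 1 of 8 were called lower, with 0 higher in both. Oligodendrocyte genes gave 6 of 8 lower and 1 higher, Prr5l. Oligodendrocyte precursor genes gave 4 of 5 lower and 1 higher, the proteoglycan Cspg4, which pericytes also carry, and GABAergic genes 3 of 6 lower. Of the blood leukocyte list 2 genes had enough UMIs to test and 1 was called higher, and S100a9 and Mrc1 led the list at 52.7 CPM or less. Choroid plexus and ependymal genes summed to 9.46 to 57.3 CPM, with 1 of the 2 tested called higher.

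Smooth muscle genes (Tagln, Myh11 and 4 others) stood at 160, 127 and 37.8 CPM in TBI rat 1, TBI rat 2 and the sham rat and at 1691 CPM in naïve, with 2, 3, 3 and 0 of the 6 genes at 0. Of the 738 smooth muscle UMIs in the naïve members, 97.3% lay in 5 nuclei and 359 in 1 nucleus. In the naïve rat Tagln, a calponin-related protein of contractile cells, stood at 630 CPM and Myh11, smooth muscle myosin, at 529 CPM. Fibroblast and meningeal genes summed to 101 to 341 CPM, led by the GABA carrier Slc6a13, with Col1a1 at 144 CPM in the naïve rat and 22.3 CPM or less in the others. Against all other nuclei, 3 of 3 smooth muscle genes tested were called higher in members (median Log2FC 5.84). Of the fibroblast and meningeal genes tested, 3 of 4 were called higher (median 4.26), and in both lists 0 were called lower. The naïve members also had a larger spread from the sham members over genes than TBI rat 2 had, with an SD of the log2 difference of 0.833 against 0.560. The part of these few nuclei in the other naïve values was not tested.

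The nuclei most like the members were the pericyte-gated ones. Outside the endothelial gate 70 nuclei passed the same kind of gate on Pdgfrb, Rgs5, Kcnj8, Abcc9 and Atp13a5, 12 in TBI rat 1, 22 in TBI rat 2, 20 in sham and 16 in naïve, with 10532, 21772, 18293 and 11514 UMIs. A further 71 nuclei (7, 38, 11 and 15) passed both gates and were counted as endothelial members in this comparison. With this depth 1808 genes were tested in the same edgeR test, and 314 (17.4%) were called higher and 150 (8.3%) lower in endothelial nuclei. Leaving out the sham rat left 144 and 55 calls, and a stricter gate of 5 UMIs and 0.8% left 96 and 28. Of the 22 identity genes tested, 20 were called higher, with a median Log2FC of 3.28 against 0.13 over all genes. Ebf1, a transcription factor found in both cell types, stood at 3006, 2797, 2829 and 1936 CPM in members with a Log2FC of 7.77 ± 0.29 against all other nuclei, and of -0.07 ± 0.31 against pericyte nuclei (FDR = 0.90).

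Among the genes called higher than in pericyte nuclei, 7 of the 10 with the largest Log2FC had no UMI in the pericyte nuclei of any rat. Set against a floor of 3 UMIs over all 70 nuclei, Nos3 was at least 7.30-fold higher in endothelial nuclei and Zfp366, a DNA-binding repressor, at least 6.13-fold. For LOC685963 the bound was 5.39-fold, for the junction molecule Jam2 4.07-fold, for the heat shock relative Hspa12b 3.37-fold and for the interferon receptor chain Ifnar2 3.14-fold. The other 3 had 1 pericyte UMI each. Their ratios were 32.4 for Ddc, the decarboxylase that makes dopamine and serotonin (95% counting interval 5.79 to 1281), 31.2 for Emcn, the endothelial sialomucin endomucin (5.58 to 1236), and 43.1 for LOC100134871 (7.71 to 1704).

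The 10 genes lower in endothelial than in pericyte nuclei with the largest difference were led by the unnamed locus AABR07006724.1 (Log2FC -2.84 ± 0.41). Notch3, the Notch receptor of mural cells, stood at 130, 114, 104 and 87.1 CPM in members with a mean of 634 CPM in pericyte nuclei (-2.30 ± 0.40). Inpp4b, a lipid phosphatase, stood at 267, 261, 262 and 261 CPM in members and 1304 CPM in pericyte nuclei (-2.09 ± 0.33), and the endothelin receptor Ednra at 122, 102, 82.0 and 73.3 CPM (-1.99 ± 0.41). The others were Dennd2a, Grik4, Khdrbs3, Rnf150, Plce1 and Chgb, with Log2FC from -2.25 to -2.00. Grik4, Chgb, Rnf150 and Ednra were not called in 1 or more of the alternative analyses. The mean for Notch3 rested on 5 to 15 UMIs in each rat's pericyte nuclei.

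By list, counts are over the genes that passed the filter on low sums. A gene could pass it through either set of nuclei alone, as Jam2 did with 0 UMIs in the pericyte nuclei. Genes high in only 1 set could therefore enter these counts through that set. Transporters of the efflux list gave 5 of 7 called higher (median Log2FC 2.84), nutrient carriers 7 of 9 (2.55), vesicle genes 7 of 8 (2.79), junction genes 8 of 13 (1.76) and capillary genes 7 of 9 (2.91). Basement membrane and integrin genes gave 6 of 13 higher and 1 lower (0.68). Slc39a10 had a Log2FC of 4.39 ± 0.61 and Slc2a1 of 3.38 ± 0.53, while Esam (1.09 ± 0.49) and Ets1 (0.57 ± 0.39) were not called (FDR = 0.087 and 0.31). These counts describe the lists and were not tested against one another.

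Ribosomal protein genes, a list made after the data had been seen, stood high in the members. Of the 68 tested, 66 were called higher and 0 lower than in all other nuclei (median Log2FC 3.87), and of 35 tested against pericyte nuclei 26 were called higher (median 1.66). Rpl37a, of the large subunit, stood at 763, 935, 508 and 939 CPM (3.59 ± 0.25) and Rpl19 at 504, 677, 388 and 1377 CPM (4.26 ± 0.35). The median member had 1.34% of its UMIs in ribosomal protein genes in TBI rat 1, 1.68% in TBI rat 2, 1.08% in sham and 2.12% in naïve. The median was 0.145% to 0.314% in other nuclei, 0.396% to 0.939% in pericyte nuclei and 0.232% to 0.435% in astrocyte-gated nuclei. The TBI medians lay between those of the sham and naïve rats. For TBI against control in the members, 63 ribosomal genes were tested and 0 called, 50 with a negative Log2FC (median -0.39 against -0.02 over all genes). In the test of whether the TBI effect differed between members and other nuclei, 0 of 63 were called, 56 were negative (median -0.98 against 0.07), and 16 had an unadjusted p under 0.05, where 2.59% of all genes did.

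This level bears on which nuclei are kept, since the study's filter left out nuclei over 2% ribosomal UMIs. That filter removed 118 of the 436 members (27.1%) and 159 of the 54965 other nuclei (0.289%). By rat it removed 14.8%, 31.5%, 3.48% and 56.2% of members in TBI rat 1, TBI rat 2, the sham rat and the naïve rat. With the study's filters the member share was 0.368%, 0.847%, 0.656% and 0.346%, so that the naïve rat moved from 0.783%, the second highest share, to the lowest. As a description, since the gate genes chose the members, the Cldn5 CPM of members over 2% was 1.21, 1.25, 1.45 and 1.28 times that of the members at or under 2%, and their Flt1 CPM 1.14, 1.21, 1.03 and 0.964 times. Mecom, with few UMIs, ran from 0.591 times in TBI rat 1 to 3.73 times in sham. For B2m the ratio was 1.13, 1.41, 1.77 and 1.81, and for Vim 1.48, 2.00, 2.38 and 2.67.

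**Figure D4:**
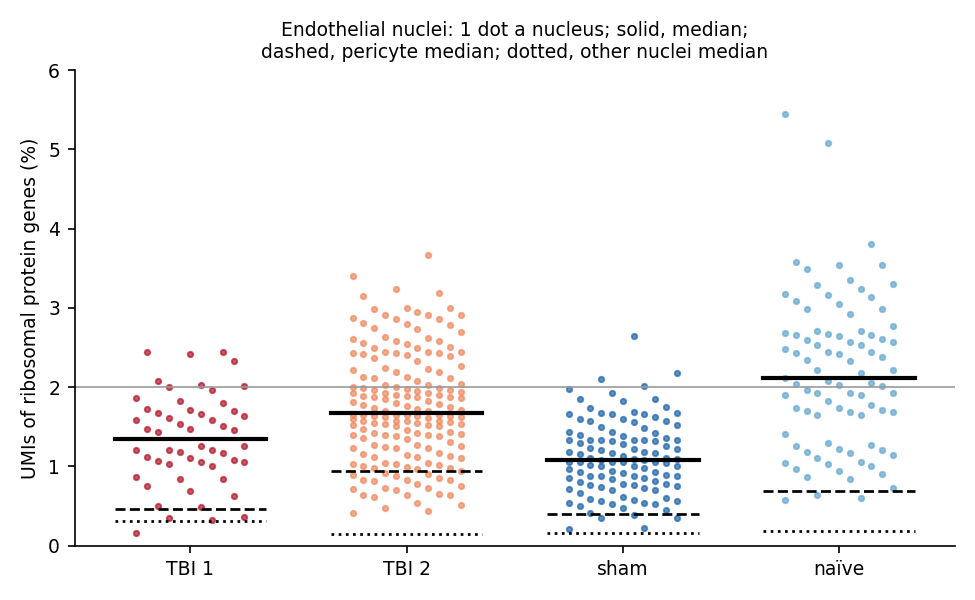
Percent of UMIs in ribosomal protein genes, 1 dot for each endothelial nucleus by rat, with the median of members (solid), of pericyte-gated nuclei (dashed) and of all other nuclei (dotted), and the study's limit of 2% as a gray line. The member medians (1.08% to 2.12%) lie above both other medians in every rat, and 118 members lie above the limit.

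Within the members, TBI was compared with control by the edgeR quasi-likelihood test on UMI sums per rat over 6803 genes. No gene passed the adjusted threshold (FDR under 0.05; 0% called in either direction), the smallest FDR was 0.9997, and DESeq2 called 0 genes as well. At an unadjusted p under 0.05 there were 91 genes (1.34%), 42 higher (0.617%) and 49 lower (0.72%) after TBI, and 8 by DESeq2. The counts depended on which control rat was kept, and with a rat left out they were highest against the naïve rat alone. Over these genes the SD of the log2 difference from the naïve rat was 0.846 for TBI rat 1, 0.705 for TBI rat 2 and 0.833 for the sham rat. Among TBI rat 1, TBI rat 2 and the sham rat it ran from 0.560 to 0.628. Without the naïve rat there were 4 calls higher and 0 lower, without TBI rat 1 0 and 6, and without TBI rat 2 1 and 2. In a fit with a lone control, that animal is assumed to vary like the others. In the test of whether the TBI effect differed between members and other nuclei, 0 genes were called by edgeR, with 176 (2.59%) at an unadjusted p under 0.05, and 5 were called lower by DESeq2.

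The listed genes lay near the background of all genes. Of 6803 genes, 1843 (27.1%) had both TBI rats on the same side of both controls, 1100 above and 743 below. Of the 235 listed genes tested, 67 (28.5%) did, 46 above and 21 below, with a median Log2FC of -0.05 against -0.02 over all genes. Besides the capillary list and the TGF-beta and BMP list, the rats did not overlap for the efflux sum (5600 and 6755 CPM after TBI, 5538 and 5496 in control), the vesicle sum (4395 and 4539 against 4226 and 3989) and the Wnt sum (3807 and 3226 against 3163 and 2829). Apart from the capillary sum, whose test is given above, these sums are given as values only.

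Of the genes with the smallest p, those with both TBI rats above both controls were led by the unnamed locus AABR07000398.1, at 3784 and 2943 CPM after TBI against 1697 and 1118 CPM in the sham and naïve rats (Log2FC 1.20 ± 0.31, edgeR FDR = 0.9997). It had the same order in all other nuclei of these rats, at 867 and 628 CPM against 387 and 347 CPM. Cd276, an immune checkpoint ligand, had 38.1 and 44.5 CPM after TBI against 6.31 and 4.58 CPM, from 5, 14, 2 and 2 UMIs. Slc2a12, a glucose carrier, had 61.0 and 44.5 CPM against 9.46 and 11.5 CPM, from 8, 14, 3 and 5 UMIs. Mast3, Pgm5 and Rcbtb2 completed the 6. All but the locus rested on 94 UMIs or fewer over the 4 rats.

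With both TBI rats below both controls, Mat2b, a subunit of methionine adenosyltransferase, stood at 30.5 and 19.1 CPM against 63.1 and 108 CPM (-1.96 ± 0.56, edgeR FDR = 0.9997). Actr3, of the actin-branching Arp2/3 complex, stood at 68.7 and 79.5 CPM against 139 and 229 CPM, and the chaperone partner Dnajb14 at 99.2 and 50.9 CPM against 142 and 252 CPM. Cdk5rap2, Nup205 and the proteasome subunit Psmd6 completed the 6. For 4 of these 6 genes the naïve rat was the highest of the animals, and all 12 genes had an edgeR FDR of 0.9997.

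Of the 274 genes tested from all lists, other cell types' markers included, 3 had an unadjusted edgeR p under 0.05 with no overlap of the rats. Over all 6803 genes, 91 (1.34%) were under that p, with or without overlap. Each of the 3 listed genes had an edgeR FDR of 0.9997. Ppard, a lipid-sensing nuclear receptor, stood at 244 and 200 CPM after TBI and 129 and 103 CPM in the sham and naïve rats (Log2FC 0.86 ± 0.35). Egr1, an immediate early gene, stood at 22.9 and 22.3 CPM against 50.5 and 80.2 CPM (-1.61 ± 0.56). Prox1, in this tissue a granule neuron marker, stood at 83.9 and 95.4 CPM against 53.6 and 20.6 CPM (1.27 ± 0.52). Counting Prox1, 8 of 8 glutamatergic list genes had a positive Log2FC (median 0.59). Their sum overlapped between the groups, at 2152 and 1354 CPM after TBI and 1898 and 373 CPM in sham and naïve, and the difference of 617 CPM was -146 CPM without the naïve rat. None of the 6 GABAergic genes had enough UMIs to test in this comparison, and the part of neuronal RNA in the other TBI values was not tested.

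**Figure D5:**
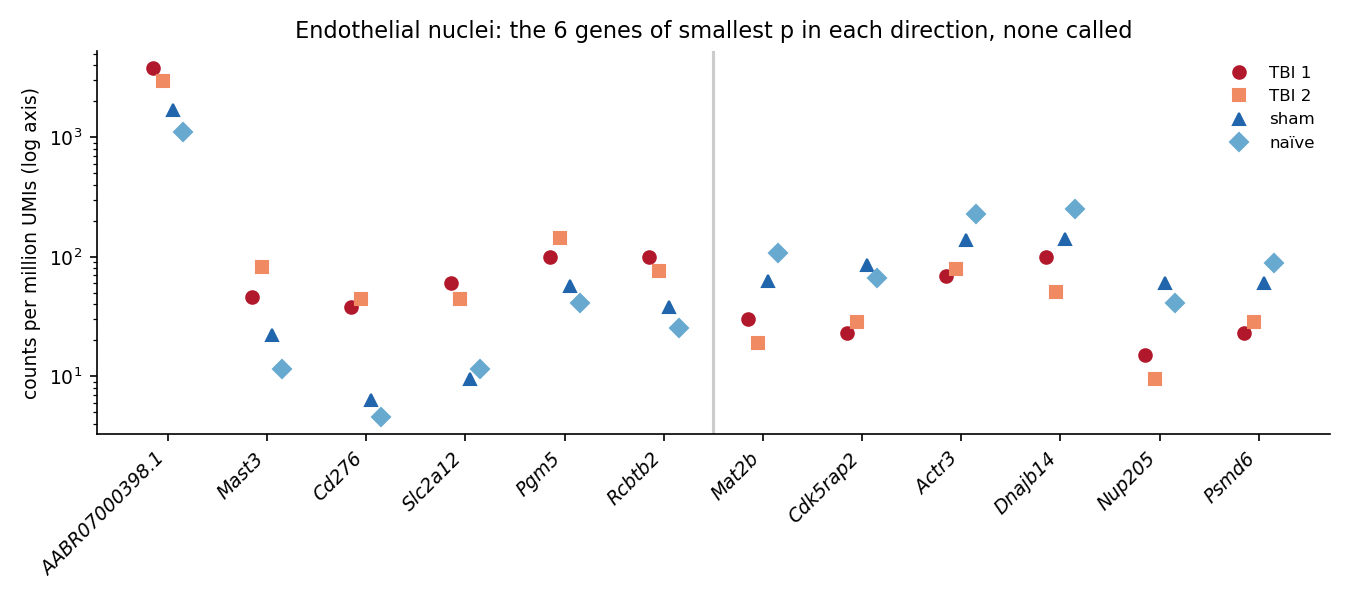
CPM on a log axis in the members of each rat for the 6 genes of smallest p with both TBI rats above both controls (left of the line) and the 6 with both below (right). These genes were picked by smallest p in each direction, which favors groups that do not overlap, and no gene passed the adjusted threshold.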

How the data were processed

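Nuclei of the 4 snRNA-seq libraries were analysed from the deposited filtered matrices of UMI counts, 1 value per gene and barcode and not normalized. Per the labels, the authors made these matrices with Cell Ranger on Rnor_6.0, and the study's methods give version 6.1.2. The members and gene lists were chosen with earlier results of these data known. Nuclei with at least 500 UMIs and at most 5% mitochondrial UMIs were kept. The study's further filters (300 genes, complexity 0.8, at most 2% UMIs of genes starting with Rps or Rpl) left 55124 of the 55863 nuclei and were an alternative. Doublets were not called. Members that another cell type's list gated, at the same 3 UMIs and 0.4%, were kept and left out in an alternative. Columns of samples outside the series numbered 0.

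UMIs were summed per rat and tested with edgeR 4.0.16 in R 4.3.3 (TMM, filterByExpr with a minimum count of 10, glmQLFit and glmQLFTest), with Benjamini-Hochberg adjustment over all genes tested, the rat as a block between nuclei of the same rats, and the gate genes left out of the calls. DESeq2 1.42.0 was an alternative. Shares and zone lists used exact permutation tests over rats (Python 3.11.15, scipy 1.17.1). Figures were drawn with matplotlib 3.10.9. The study tested nuclei as replicates, which was not done here. On simulated data, edgeR recovered 166 of 200 genes changed 8-fold for TBI against control (6807 genes, with 4 unchanged genes called). It recovered 147 of 200 for members against other nuclei (14060 genes, with 6 unchanged genes called). DESeq2 recovered 131 and 136. Every simulated gene had the same dispersion (0.1) and no further difference between rats. In the simulated TBI test 331 unchanged genes had an unadjusted edgeR p under 0.05, against 91 of all genes in the real one. The recovery therefore does not give the power in these 4 rats.

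Genes were named by rule. These were the gate genes, the 15 genes with the largest Log2FC among those called higher than in other nuclei with 10 or more UMIs in every rat, the 10 higher and 10 lower against pericyte nuclei, the 6 of smallest p in each direction for TBI, given as values, the 4 highest in each pathway list, the 2 highest markers of each other cell type, and listed genes with no overlap and an unadjusted p under 0.05. Genes called against their list's direction, genes at or near 0 UMIs, Mfsd2a and the ribosomal list were chosen after their values were seen. The value of 1 of the 10 genes higher than in pericyte nuclei is not reported here. The bulk RNA-seq tables were not used.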

Additional observations from a re-analysis of the deposited data

How the results depend on the processing

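Alternatives were another normalization or test, no filter on low sums, other gates, the study's filters, and leaving out each rat. Leaving out members gated by another list in the comparisons with other and pericyte nuclei and in the zone sums, the study's filters in the comparison with other nuclei, and DESeq2 for the interaction were added after seeing the data. No paired analysis of TBI against control was possible because the TBI and control libraries came from different rats. In the comparison with pericyte nuclei, the fit without the block gave 61 genes lower in place of 150 (239 higher in place of 314), and the comparison with other nuclei kept both counts within 1.5 times in every alternative. For TBI against control, no filter on low sums gave 1 gene higher, 7 lower and 8 DEGs of Log2FC 1.5, and leaving out each rat gave 0 to 277 higher, 0 to 214 lower and 3 to 303 DEGs, the highest without the sham rat. For the pericyte comparison, DESeq2 gave 41 lower, no filter 607 higher and 7 lower, the gate of 5 UMIs and 0.8% 96 and 28, and leaving out each rat 144 to 336 higher and 52 to 134 lower. For the interaction, DESeq2 gave 5 lower, and leaving out each rat gave 0 to 348 higher and 3 to 75 lower. The share difference was -0.0158 percentage points without members gated by another list and -0.300 to 0.490 with each rat left out. The arterial difference was -153 CPM without those members and -147 to 295 CPM with each rat left out, and the venous one -55.3 to 273 CPM. The Log2FC of Top2a ran from -7.63 to 1.83 with each rat left out, the former without the naïve rat, and was -7.83 with the study's filters and -8.03 without members gated by another list, since its UMIs lay in naïve members. For the other shifts the cause was not tested. Of the values of 114 named genes under all alternatives, 1158 kept their direction and call, 19 lost the call, 10 gained it and 3 reversed. The depth limits low genes most: a gene at 0 UMIs in the members could have had up to 3.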

Other observations

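Hemoglobin transcripts, which mark red blood cells and their precursors, were more frequent in the endothelial nuclei than in the other nuclei pooled. These genes belonged to no list and were chosen after their values were seen, together with LOC100134871, thought to be a globin gene but not matched to an annotation here. Hba-a1 had 88, 157, 126 and 275 UMIs in the members of TBI rat 1, TBI rat 2, the sham rat and the naïve rat, or 671, 499, 397 and 630 CPM. In all other nuclei it stood at 6.57, 1.04, 2.03 and 18.9 CPM. It was detected in 5, 38, 22 and 27 members (9.26%, 21.3%, 19.1% and 30.3%), against 1.60%, 0.160%, 0.119% and 1.84% of other nuclei, and the highest single member held 54, 17, 28 and 51 of its UMIs. The other nuclei were not uniform, since in the naïve rat Hba-a1 was detected in 11.3% of astrocyte-gated nuclei (72.6 CPM) and stood at 137 CPM in microglia-gated ones. Members over 2% ribosomal UMIs held 84 of its 88 UMIs in TBI rat 1 and 70 of 157 in TBI rat 2. They held 1 of 126 in the sham rat and 231 of 275 in the naïve rat. Such members numbered 8, 56, 4 and 50, and their Hba-a1 CPM was 86.9, 1.83, 0.164 and 2.13 times that of the other members. The Log2FC against other nuclei was 6.57 ± 0.48 for Hba-a1, 6.60 ± 0.74 for Hba-a2 and 6.55 ± 0.42 for Hbb. Any of these 3 genes or LOC100134871 was present in 8, 48, 27 and 33 members. TBI and control rats overlapped in CPM for Hba-a1.

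Abcg2 separated 1 rat from the others. Its 1097 CPM in TBI rat 2 stood against 206 to 330 CPM in the other rats, and the TBI against control Log2FC of 1.05 ± 0.65 (edgeR FDR = 0.9997) was the mean of 1 rat above and 1 below both controls. Cdh5, VE-cadherin of endothelial junctions, was detected in 33.3%, 33.7% and 30.4% of the members of TBI rat 1, TBI rat 2 and the sham rat and in 68.5% of the naïve members. After thinning to 500 UMIs these shares were 11.1%, 11.2%, 6.09% and 20.2%. Mx2, an interferon-induced GTPase, stood at 107, 235 and 190 CPM in TBI rat 1, TBI rat 2 and the naïve rat and at 9.46 CPM in the sham rat.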
